A study of Mus musculus with 96 samples.

Results

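Osteoclast differentiation genes were followed through bone-cell cultures of 42 inbred mouse strains. The group held 8 genes, chosen by symbol: Acp5, Itgb3, Nfatc1, Atp6v0d2, Dcstamp, Ocstamp, Oscar and Calcr, out of 37945 genes in the deposited table. All 8 were found, with the transcripts of each gene summed. The cultures were labelled as osteoblasts of the Collaborative Cross, a panel of recombinant inbred strains descended from several founder strains. Cells of the skull caps of pups aged 3 to 5 days were grown for 48 h and then kept for 10 days with ascorbic acid and beta-glycerol phosphate, the usual additions for mineralization. There was no treated group: strain was the only difference the labels gave, and age, medium and time in culture were shared. Total RNA was sequenced in 96 samples, and 1 CC030 sample was sequenced 2 times and entered as its mean, which left 95 libraries. Most strains were represented by a pair of libraries (31 strains), 2 strains by 3 libraries and 6 by 4. A single library stood for each of CC011, CC024 and CC035. The labels give neither sex nor litter and do not say whether libraries of a strain came from separate animals. The p-values for strain differences and for slopes within strains therefore rest on a spread between libraries that may be technical. Slopes across strains were fitted on strain means, and their p-values rest on the scatter between strains.

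Osteoclasts, the cells that resorb bone, form from mononuclear precursors of the macrophage lineage. Precursors carry the CSF1 receptor (Csf1r) and RANK (Tnfrsf11a), and RANK ligand from osteoblasts and stromal cells turns on NFATc1, the transcription factor that drives the osteoclast programme together with AP-1, PU.1 and MITF. Dcstamp and Ocstamp then allow precursors to fuse into multinucleated cells, and the calcitonin receptor (Calcr) marks the mature cell. The culture of skull-cap cells is a mixture, and macrophages of the tissue can persist in it.

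Sequences are shown for Acp5, which encodes the tartrate-resistant acid phosphatase used as the classical osteoclast stain, because its transcripts came from separate start sites and both main starts have a window in the RefSeq promoter table (GRCm38.p6). Windows run from 250 bases before to 50 bases after the RefSeq start, on the minus strand of chromosome 9, and are written 5′ to 3′ along the gene. Capitals mark the NFAT core GGAAA and the MITF box CATGTG, searched on both strands, so that TTTCC and CACATG are the same motifs read on the other strand. The first lies at chr9:22131816-22132115, next to the start of the transcript ENSMUST00000069330, which held 91.0% of Acp5 RNA. The second lies at chr9:22130549-22130848 and holds the start of ENSMUST00000115315, which held 8.76%.
Acp5, upstream start: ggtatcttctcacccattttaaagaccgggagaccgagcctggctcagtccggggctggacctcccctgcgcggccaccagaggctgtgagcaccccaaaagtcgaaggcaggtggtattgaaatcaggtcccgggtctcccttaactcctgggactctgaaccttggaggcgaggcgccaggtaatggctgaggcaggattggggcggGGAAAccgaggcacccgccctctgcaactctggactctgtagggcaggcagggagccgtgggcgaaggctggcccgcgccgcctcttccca
Acp5, downstream start: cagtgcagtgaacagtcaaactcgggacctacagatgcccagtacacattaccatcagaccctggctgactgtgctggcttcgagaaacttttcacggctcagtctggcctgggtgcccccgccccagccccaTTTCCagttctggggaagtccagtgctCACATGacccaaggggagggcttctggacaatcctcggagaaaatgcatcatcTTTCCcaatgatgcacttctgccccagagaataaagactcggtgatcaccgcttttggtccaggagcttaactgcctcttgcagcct

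The annotated starts of these 2 transcripts (GENCODE, GRCm38) are 1217 bases apart. That of ENSMUST00000069330 is 50 bases downstream of the RefSeq start, and that of ENSMUST00000115315 coincides with it. The upstream window held 1 NFAT core and the downstream window 2 NFAT cores and 1 CATGTG. Of all 32851 windows of 300 bases in the table, 61.3% held an NFAT core and 14.2% a CATGTG. Neither window held the AP-1 motif TGANTCA (present in 7.81% of all windows), the PU.1 motif GAGGAA (28.3%) or the MITF box CACGTG (7.15%). The matches describe letters only. Of the members, 3 had windows in the table: Acp5, Calcr and Oscar.

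Values are scaled TPM: TPM as deposited, a length-corrected relative abundance, divided by 1 scaling factor per library. In units of 1000000 reads, depth was estimated at 21.0 to 40.0 per library (median 27.9), apart from 56.9 for the CC030 sample with 2 runs and 83.6 for a CC075 library. Osteoblast markers were abundant in every library, with a summed level of 15 genes between 8034 and 25250 TPM. Macrophage markers were also present in every library, and their summed level of 14 genes ran from 9.47 TPM in a CC041 library to 1675 TPM in a CC030 library. The macrophage level used below, the mean log2 level of these 14 genes, differed 25.5-fold between the lowest and highest of 42 strain means. Its Pearson correlation with the osteoblast level was -0.41 over 42 strains that share no library but do share a fixed total of TPM.

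The 8 genes stood at very different levels, which TPM sets per length and the plot of levels in all libraries shows. Acp5 had a lowest value of 3.37, a median of 6.10 and a highest value of 15.9 scaled TPM over the 95 libraries. Itgb3, the beta-3 integrin subunit that forms the vitronectin receptor of the osteoclast, ran from 2.54 through a median of 5.40 to 10.8. Both were therefore present in every library, within a span of 4.71-fold for Acp5 and 4.25-fold for Itgb3. Nfatc1 ran from 0.597 through 1.14 to 4.32. Atp6v0d2, the d2 subunit of the vacuolar proton pump and itself linked to fusion, ran from 0.271 through 1.32 to 13.2, a span of 48.9-fold and the widest of the 5 members with no library at 0.

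The genes of fusion and of the mature cell were low. Dcstamp, Oscar and Calcr had fewer than 3 estimated reads in most libraries, while Ocstamp reached 3 reads in 93. Ocstamp was above 0 in all 95 libraries, with a median of 0.0708 scaled TPM, about 8.9 estimated reads, and a highest value of 0.213. Reads are estimates, and one within 0.1 of 3 was taken as 3. Dcstamp was listed at 0 in 40 libraries and had fewer than 3 estimated reads in 73, with a median of 0.0158 and a highest value of 1.24. Oscar, a costimulatory receptor of the osteoclast lineage, was listed at 0 in 25 libraries and had fewer than 3 reads in 70, with a median of 0.0320 and a highest value of 0.281. Of its summed TPM, 35.9% came from ENSMUST00000148645, a transcript of 388 bases not annotated as protein coding. That transcript was at 0 or below 1e-06 TPM in 80 libraries and reached 0.240, so the gene level overstates receptor mRNA in the remaining libraries only. Calcr was listed at exactly 0 in 86 of 95 libraries and below 1e-06 TPM in 3 more, which are counted with those at 0 from here on, had at most 3.0 estimated reads in any library, and 8.9 over all 95 together. At a read count of 0 the limit of 3 reads corresponds to a median of 0.0255 scaled TPM for the longest Calcr transcript, of 3763 bases. The limit is higher for shorter transcripts, and ENSMUST00000168592, with 69.5% of the little Calcr RNA, has 2064 bases. For the Dcstamp transcript, of 1997 bases, 3 reads corresponded to a median of 0.0489. Levels below such limits were not reliably detectable at this depth. Without the allowance of 0.1 read, Dcstamp had fewer than 3 reads in 80 libraries, Oscar in 83 and Calcr in all 95. These limits cover counting error only.

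**Figure D1:**
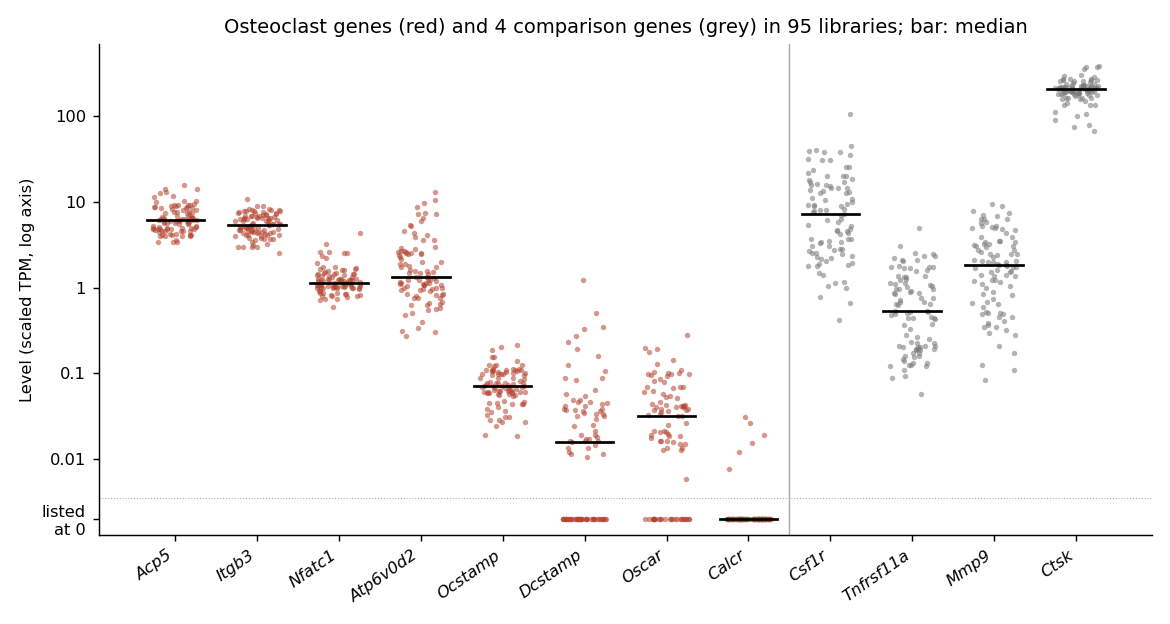
Level of each of the 8 osteoclast genes (red) and of 4 comparison genes (grey) in 95 libraries, in scaled TPM on a log axis, with values of 0 on a separate line at the bottom and a bar at the median. Acp5 and Itgb3 lie between 2.54 and 15.9 in every library, while 89 Calcr values (86 at exactly 0 and 3 below 1e-06) and 40 Dcstamp values lie on the line for 0.

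Receptors of the precursor stage were measured in every library. Csf1r ran from 0.424 through a median of 7.18 to 106 scaled TPM, and Tnfrsf11a from 0.0577 through 0.536 to 4.91. Within a library Tnfrsf11a was 4.17% to 20.7% of the Csf1r level (median 7.93%), so the 2 receptors kept a narrow ratio. The members did not: Acp5 ran from 8.43% to 1129% of the Csf1r level in the same library and exceeded it in 46 of 95 libraries, Itgb3 from 8.50% to 1226% and in 41 libraries. Atp6v0d2 ran from 2.01% to 307% (median 24.1%) and Nfatc1 from 2.42% to 413% (median 18.4%). Ocstamp had a median of 0.967% and Dcstamp of 0.102% of the Csf1r level, and neither exceeded Csf1r in any library. Ctsk, the collagen-degrading protease of osteoclasts that mesenchymal cells also make, was far above all of them, at 68.3 to 384 TPM (median 208).

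Only 4 of the 8 members passed the filter for testing, at least 0.5 TPM in 2 or more libraries: Acp5, Itgb3, Nfatc1 and Atp6v0d2. Calcr, Ocstamp, Dcstamp and Oscar did not pass and are described by their values. Differences between strains were tested with limma on log2(scaled TPM + 0.5), a scale that understates changes of low genes, over 15760 genes in the 92 libraries of the 39 strains with 2 or more. All 4 tested members differed between strains, at an adjusted p below the threshold of 0.05, as did 81.5% of all genes tested. The range between the highest and lowest strain was 1.92 on the log2 scale for Acp5 (limma adjusted p = 6.3e-11), 1.43 for Itgb3 (adjusted p = 2.5e-08), 1.47 for Nfatc1 (adjusted p = 0.0018) and 3.68 for Atp6v0d2 (adjusted p = 8.1e-11). The median range over all genes tested was 1.02. With only the 20 strains whose sample numbers were 20 or more apart, the Nfatc1 range was 0.97 and no longer passed (limma adjusted p = 0.46), while the other 3 members still passed.

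Acp5 was highest in CC074, where the 2 libraries had 15.9 and 12.9 scaled TPM, and in CC007, with 13.1 and 11.7. It was lowest in CC023, with 3.37 and 3.44. CC074 was 2.22-fold above the mean of the other strains (log2 1.15 ± 0.17 SE, limma adjusted p = 8.9e-07). CC007 was 1.92-fold above the mean of the other strains (log2 0.94 ± 0.17, limma adjusted p = 4.5e-05). CC023 had 0.565 of that mean (log2 -0.82 ± 0.17, limma adjusted p = 0.00034). CC004, with 4 libraries between 8.96 and 11.4, was 1.50-fold higher (adjusted p = 0.00037). Behind CC074 and CC007 in the order of means stood CC040 (11.7 ± 3.45 SD, n = 2), CC035 (10.2, 1 library), CC004 and CC010 (9.97 ± 5.95, n = 2). The next 10 strains, CC019, CC024, CC038, CC005, CC044, CC012, CC016, CC039, CC009 and CC030, had means of 9.07 to 7.41. Then came CC057, CC001, CC045, CC003, CC059, CC025, CC037, CC075, CC061 and CC043 (7.11 to 5.42), and CC011, CC006, CC002, CC008, CC051, CC053, CC041, CC032, CC055 and CC015 (5.24 or less). CC071, CC065, CC013, CC028, CC042 and CC023 closed the order at 4.49 to 3.41. No step between neighbours in this order exceeded the residual SD of 0.24 log2, so the order of neighbouring strains is not resolved. In CC010 the 2 libraries disagreed, with 5.76 and 14.2, and without the second the strain was not higher (log2 -0.11, limma adjusted p = 0.81).

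The transcripts behind Acp5 were also taken singly. ENSMUST00000069330 was highest in CC074, at 12.8 and 13.2 scaled TPM, and ENSMUST00000115315, from the downstream start printed above, in CC040, at 2.46 and 3.20. In CC013 the downstream transcript was at 0.0049 TPM or less in both libraries. Each of these transcripts differed between strains when 38899 transcripts were tested singly (limma adjusted p = 1.7e-08 for the upstream start and 0.022 for the downstream start), as did 53.3% of transcripts. Over the 95 libraries the downstream start held a median of 5.83% of Acp5 RNA, from 0.0022% in CC013 replicate 1 to 69.3% in CC061 replicate 1. The other CC061 library had 0.601%, so that libraries of 1 strain lay far apart, and differences between strains in these shares were not tested. The transcripts share most of their sequence and their split is an estimate of the authors' pipeline. In CC051, too, the shares were 64.8% and 11.6%. Neither transcript followed the macrophage level across strains (slopes 0.0050 and 0.086, limma adjusted p of 0.98 and 0.57). The main Atp6v0d2 transcript, ENSMUST00000029900, did so across strains (0.48) and within them (0.39, limma adjusted p = 0.047), beside 7.54% and 5.21% of transcripts called with positive slopes.

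Itgb3 was highest in CC016, with 10.8 and 8.20 scaled TPM, and lowest in CC057, with 3.40 and 2.96. CC016 was 1.70-fold above the mean of the others (log2 0.77 ± 0.17 SE, limma adjusted p = 0.00054). CC057 had 0.614 of the mean of the others (log2 -0.70 ± 0.17, limma adjusted p = 0.0016). Both calls were lost without 1 library, with adjusted p of 0.085 without CC016 replicate 1 and 0.067 without CC057 replicate 2. CC041, the strain with the lowest macrophage level, was also lower, with 4 libraries at 2.96, 2.98, 5.09 and 3.69 (log2 -0.54 ± 0.12, limma adjusted p = 0.00066), and stayed called without each of its libraries. CC002, another strain with few macrophages, was in contrast higher, with 7.61 and 8.01 (1.42-fold, adjusted p = 0.029, and 0.12 or 0.19 with 1 of its libraries left out). After CC016 in the order came CC030, CC002, CC025, CC015 and CC065 (8.43 to 7.08). CC043, CC004, CC006, CC008, CC071, CC035, CC045, CC061, CC032 and CC005 followed (7.15 to 6.09), then CC023, CC007, CC040, CC039, CC037, CC055, CC038, CC009, CC074 and CC042 (6.26 to 5.02). CC053, CC012, CC013, CC001, CC028, CC075, CC044, CC051, CC019 and CC010 had means of 4.97 to 3.73, and CC024, CC011, CC041, CC059, CC003 and CC057 of 3.68 to 3.18. Means were ordered on the log2 scale, so linear means of neighbouring groups touch, and no neighbouring step exceeded the residual SD of 0.23 log2.

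Beta-3 integrin is also the partner of the platelet integrin Itga2b in megakaryocytes. Of 5 megakaryocyte and platelet markers, 3 passed the filter, and their summed level was 1.34 TPM in the lowest library and 17.1 in the median one, most of it Pf4 (0.607 to 199.8 TPM), which was highest in CC030 and which macrophages can also make. The defining markers Gp9, listed at 0 in 69 of 95 libraries, and Gp1ba, at most 0.455 TPM, were low throughout, and Itga2b was at 0.269 to 2.37 TPM. Their part in the Itgb3 differences was not tested.

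Nfatc1 was highest in CC043, with 2.59 and 3.23 scaled TPM, a strain of middling macrophage level (rank 26 of 42). The strain was 2.01-fold above the mean of the others (log2 1.00 ± 0.21 SE, limma adjusted p = 0.00028). This was the only Nfatc1 call kept without each library. CC028 was called higher on libraries of 4.32 and 0.991, and without the first it was not higher (log2 -0.19, limma adjusted p = 0.68). CC030 was called on libraries of 2.56 and 1.64 and lost the call without the first (adjusted p = 0.52). CC008 split into 2 libraries at 2.52 and 2.58 and 2 at 1.24 and 1.06. No strain was called lower, and the lowest, CC037, had 0.597 and 0.874. After CC043 the order of means ran CC028, CC030, CC023, CC008 and CC061 (2.66 to 1.69), then CC051, CC024, CC004, CC012, CC007, CC038, CC010, CC001, CC041 and CC005 (1.71 to 1.25). The next 10, CC016, CC019, CC059, CC011, CC032, CC039, CC006, CC025, CC055 and CC071, were within 1.24 to 1.11. CC042, CC015, CC035, CC075, CC074, CC002, CC003, CC013, CC040 and CC065 had 1.12 to 0.905, and CC044, CC009, CC053, CC045, CC057 and CC037 had 0.894 to 0.736. One neighbouring step, from CC043 to CC028, exceeded the residual SD of 0.29 log2.

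Atp6v0d2 had the widest range. It was highest in CC030, with 9.84 and 13.2 scaled TPM, and CC055, with 7.18 and 10.4, and lowest in CC038, with 0.307, 0.568, 0.271 and 0.626. Both CC030 libraries stood above every library of the other strains except the higher one of CC055, and the next was a CC008 library at 8.78. CC030 was 5.64-fold above the mean of the others (log2 2.50 ± 0.35 SE, limma adjusted p = 1.6e-07). CC055 was 4.31-fold higher (log2 2.11 ± 0.35, adjusted p = 6.5e-06) and CC032, with 5.43 and 5.24, 2.71-fold higher (adjusted p = 0.0021). CC038 had 0.412 of the mean of the others (log2 -1.28 ± 0.25, limma adjusted p = 0.00011), and CC059 0.449 (adjusted p = 0.0027). These 5 calls were kept without each library of their strain. CC074 (4.58 and 7.24), CC071 (4.36 and 6.44) and CC008 (0.975, 3.59, 6.02 and 8.78) were also called higher but lost the call without 1 library, at adjusted p of 0.079 without CC074 replicate 1, 0.10 without CC071 replicate 2 and 0.099 without CC008 replicate 4. CC030, CC055, CC074, CC032, CC071 and CC024 headed the order (11.5 to 3.95), followed by CC008, CC045, CC001, CC019, CC007, CC015, CC040, CC044, CC006 and CC035 (4.84 to 1.75). CC011, CC025, CC004, CC051, CC061, CC023, CC003, CC016, CC013 and CC039 had 1.86 to 1.27, and CC053, CC041, CC010, CC065, CC037, CC009, CC012, CC005, CC028 and CC075 had 1.18 to 0.804. CC042, CC002, CC057, CC059, CC043 and CC038 were lowest, at 0.690 to 0.443. One neighbouring step, from CC055 to CC074, exceeded the residual SD of 0.48 log2.

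The strains that stood out differed from member to member. Acp5 was called higher in 7 strains and lower in 7, Itgb3 in 6 and 6, Atp6v0d2 in 6 and 4, and Nfatc1 in 3 and 0, which is 14.1% of 156 pairs of member and strain called higher and 10.9% called lower, against 7.7% and 7.08% of pairs over all genes. Of these 39 calls, 11 were kept without each library of their strain: CC004, CC007, CC023 and CC074 for Acp5, CC041 for Itgb3, CC043 for Nfatc1, and CC030, CC032, CC038, CC055 and CC059 for Atp6v0d2. Leaving 1 of 2 libraries out leaves a single value, which is assumed to vary like the other strains. Atp6v0d2 and Itgb3 were called in the same direction in 3 strains, Acp5 and Itgb3 in 2, and the other pairs in 1 or 0. Acp5 and Itgb3 were called in opposite directions in 3 strains. Acp5 and Atp6v0d2, Acp5 and Nfatc1, and Atp6v0d2 and Nfatc1 were so in 1 strain each, and the other pairs in 0. Such overlaps were not counted for pairs of all genes, so whether these are few or many was not tested. Over the 42 strain means, Pearson correlations among the 4 tested members ran from -0.14 (Acp5 and Nfatc1) to 0.24 (Atp6v0d2 and Itgb3), as a description of strains that share 1 scaling of libraries.

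**Figure D2:**
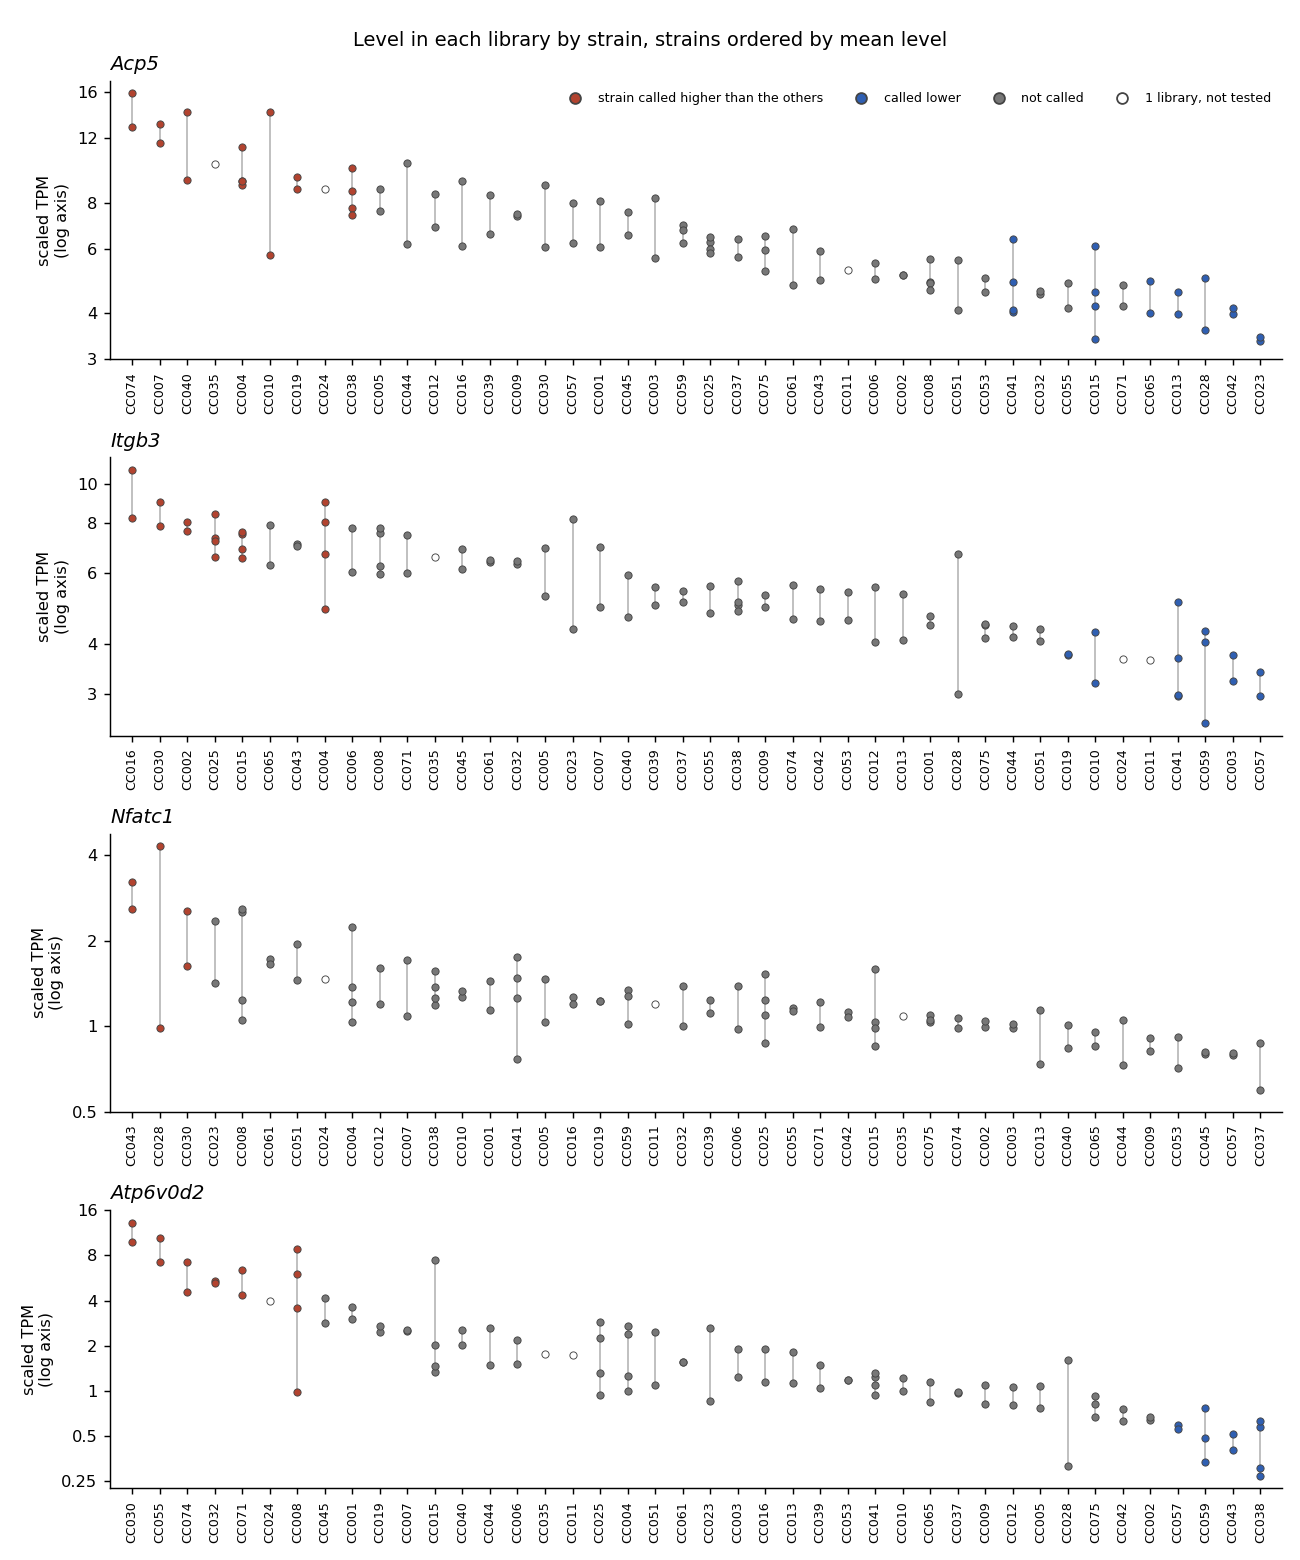
Level of the 4 tested members in each library (scaled TPM, log axis) by strain, with strains ordered by mean level within each panel. Red strains were called higher and blue strains lower than the mean of the others, grey strains were not called and open points are strains with 1 library. The strains at the ends differ from panel to panel, and CC028 shows the widest split between the 2 libraries of a strain for Nfatc1.

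To ask which members followed the mononuclear phagocytes of the culture, each gene was related to the macrophage level over the 42 strain means, with limma over all 15760 genes. The slope is the log2 change of a gene per log2 unit of the markers, whose own median slope was 1.02. A gene well above 0.5 TPM made only by macrophages in fixed proportion would have a slope near that. The added 0.5 TPM lowers the slopes of genes at lower levels. Tnfrsf11a, which kept a narrow ratio to Csf1r, had a slope of 0.58 at a median of 0.536 TPM. The marker Aif1 had 0.62 at 0.827 TPM and Cd163 0.17 at 0.105 TPM. A slope below 1.02 in a low gene, such as Atp6v0d2 at a median of 1.32 TPM, does not give the share made by macrophages. Atp6v0d2 rose with the macrophage level, with a slope of 0.48 ± 0.077 SE (limma adjusted p = 4.7e-06). It was the only member called, beside 13% of all genes called with a positive slope and 10.5% with a negative one. Positive slopes made up 55.4% of all calls, and 91.2% with unscaled TPM. The other 3 tested members were not called. Acp5 had a slope of 0.016 ± 0.055 (95% interval -0.091 to 0.12, adjusted p = 0.87), Itgb3 of 0.048 ± 0.043 (-0.037 to 0.13, adjusted p = 0.47) and Nfatc1 of 0.066 ± 0.036 (-0.0041 to 0.14, adjusted p = 0.19). All 3 intervals end below the 0.33 at which that of Atp6v0d2 begins. In bulk RNA, fewer cells of a type and less RNA per cell cannot be told apart.

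Single strains give the levels behind these slopes. CC002, at rank 40 of 42 for the macrophage level, had 1.04 and 0.654 TPM of Csf1r and 5.08 and 5.10 of Acp5. CC041, at rank 42, had 1.18, 1.14, 1.80 and 0.424 TPM of Csf1r and 4.02 to 6.39 of Acp5, for which it was called lower. CC030, at rank 1, had 106 and 45.1 TPM of Csf1r and 8.93 and 6.07 of Acp5. Atp6v0d2 departed from the macrophage level in single strains. CC038, at rank 15 and with 5.41 to 20.4 TPM of Csf1r, had the lowest Atp6v0d2 level of all strains, although its Ctsk (up to 384 TPM) and Mmp9 (5.06 to 9.40 TPM) were near the top of their ranges. CC074, at rank 12, had the highest Acp5 and the third highest Atp6v0d2.

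**Figure D3:**
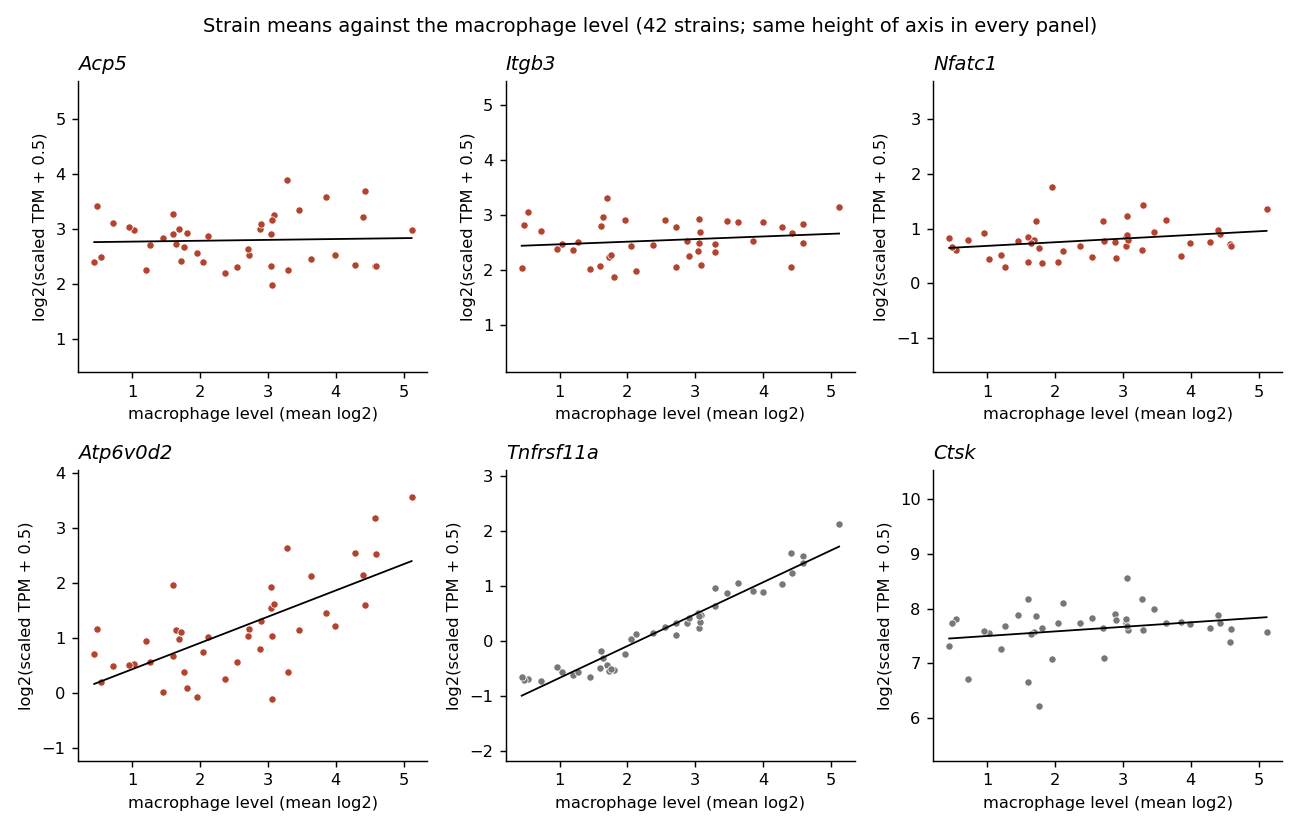
Mean log2(scaled TPM + 0.5) of 42 strains against their macrophage level (mean log2 of 14 markers), for the 4 tested members (red) and for Tnfrsf11a and Ctsk (grey), with a least-squares line and the same span of the vertical axis in each panel. Tnfrsf11a lies close to its line with a slope of 0.58, Atp6v0d2 scatters about a slope of 0.48, and the other 3 members have slopes of 0.066 or less.

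Among libraries of 1 strain, where the genome is shared, Atp6v0d2 again rose with the macrophage level, with a slope of 0.40 ± 0.13 SE (limma adjusted p = 0.019), and was again the only member called, beside 12.3% of all genes with a positive and 10.7% with a negative slope. Positive slopes made up 53.4% of these calls, and 96.6% with unscaled TPM. The direction of Atp6v0d2 was upward in 23 of 39 strains, against 21 for Itgb3 and 20 each for Acp5 and Nfatc1. The count of directions thus hardly set Atp6v0d2 apart. The call was lost without CC015 replicate 4, whose 7.47 TPM stood above 1.33 to 2.02 in the other 3 libraries (slope 0.28, adjusted p = 0.098). It was also lost in either subset by sample number, with slopes of 0.24 (adjusted p = 0.33) over 19 strains with close numbers and 0.54 (adjusted p = 0.24) over 20 with distant numbers. Acp5 had a slope of 0.15 ± 0.066 (adjusted p = 0.0998) within strains. With unscaled TPM the median slope of all genes within strains moved to 0.12, and Acp5, at 0.28 or 0.17 above that median, passed (adjusted p = 0.00034). Itgb3 (-0.0091 ± 0.067, adjusted p = 0.94) and Nfatc1 (-0.0021 ± 0.083, adjusted p = 0.99) were not called. Tnfrsf11a had a slope of 0.56 ± 0.041 (adjusted p = 3.5e-17), upward in 33 of 39 strains.

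With the macrophage level held fixed, the osteoblast level was related to the members across strains. Atp6v0d2 fell with the osteoblast level, with a slope of -0.57 ± 0.19 SE (limma adjusted p = 0.036), beside 7.3% of all genes called with a negative slope and 6.92% with a positive one. Positive slopes made up 48.7% of all calls, and 64.8% with unscaled TPM. The call was lost with a pseudocount of 0.1 (limma adjusted p = 0.062), with unscaled TPM (0.065) and with no filter (0.056). It did not hold either when CC030 and CC041, the strains with the most extreme macrophage levels, were left out (slope -0.49, adjusted p = 0.12), nor without CC007, CC028, CC030, CC045 or CC074 alone (adjusted p of 0.054, 0.067, 0.13, 0.052 and 0.052). Acp5 (0.15 ± 0.15, adjusted p = 0.55), Itgb3 (-0.20 ± 0.11, adjusted p = 0.27) and Nfatc1 (0.0015 ± 0.097, adjusted p = 0.99) were not called. Beside the macrophage level, strain still made a difference for all 4 tested members, as for 79.9% of genes, with adjusted p between 2.8e-11 for Acp5 and 0.0044 for Nfatc1 (limma). The Atp6v0d2 range between strains was then 2.86 on the log2 scale, and the Acp5 range 1.89.

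The members that did not pass the filter were examined in an unfiltered fit with a pseudocount of 0.1, an alternative chosen after seeing the data. Dcstamp differed between strains (range 2.93 log2, limma adjusted p = 4.0e-13), as did Ocstamp (range 1.02, adjusted p = 0.010) and 58.1% of the 25859 genes in that fit. Oscar (adjusted p = 0.21) and Calcr (adjusted p = 0.62) did not pass. Dcstamp was highest in CC028, with 0.333 and 1.24 scaled TPM or about 27.9 and 59.6 reads, and in CC053, with 0.347 and 0.504 or about 21.9 and 34.8 reads. CC010 followed with 0.229 and 0.160 and CC040 with 0.191 and 0.106, and in CC023 1 library had 0.274 and the other 0.021. These 5 strains were called higher for Dcstamp, at limma adjusted p between 9.8e-15 for CC028 and 0.025 for CC023, against 5.31% of pairs of gene and strain called higher and 4.13% called lower in that fit. The strain difference of Dcstamp stayed called without each of 92 libraries and without CC028 altogether (adjusted p = 1.4e-11). In macrophage level CC040 ranked 8, CC028 11, CC023 14, CC053 25 and CC010 33 of 42, and CC030, the richest in macrophage markers, had 0.088 and 0.014 TPM of Dcstamp.

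Ocstamp was highest in CC008, with 0.213, 0.201, 0.157 and 0.112 scaled TPM, about 25.8 reads in each of the first 2 libraries. CC008 was the strain called higher for it (log2 0.64 ± 0.12 SE, limma adjusted p = 0.00016). Calcr was called higher in CC051 (0.16) and CC053 (0.14), on no more than 3.0 reads in any library. Without CC008 the strain difference of Ocstamp was not called (limma adjusted p = 0.15). In that fit none of the 4 members with few reads followed the macrophage level across strains: the slopes were 0.040 for Dcstamp, -0.0067 for Ocstamp, 0.0054 for Oscar and 0.0017 for Calcr (limma adjusted p of 0.79, 0.91, 0.95 and 0.90). Counting a gene as seen at 3 estimated reads, 1 library showed none of the 4 genes, 56 showed 1, 29 showed 2, 9 showed 3 and 0 showed all 4. Without the allowance of 0.1 read, 67 libraries showed 1 gene, 22 showed 2, and 2, CC030 replicate 1 and CC061 replicate 1, showed 3. Calcr reached 3 reads in 1 library, of CC051, with the allowance and in 0 without it. The libraries with the most Dcstamp differed in the other members. CC028 replicate 2 had 1.24 TPM of Dcstamp beside 1.61 of Atp6v0d2, 3.61 of Acp5 and 0.991 of Nfatc1, while CC028 replicate 1, with 0.333 of Dcstamp, had the highest Nfatc1 of all libraries at 4.32 beside 0.312 of Atp6v0d2. RNA of Csf1r and Tnfrsf11a was thus measured in all 95 libraries, which does not show that osteoclast precursors were present. With the allowance, Ocstamp reached 3 reads in 93 libraries, Oscar in 25 and Dcstamp in 22. The mature-cell receptor Calcr was above 0 in 6 libraries and reached 3 reads in 1. RNA levels in bulk do not show whether cells had fused.

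**Figure D4:**
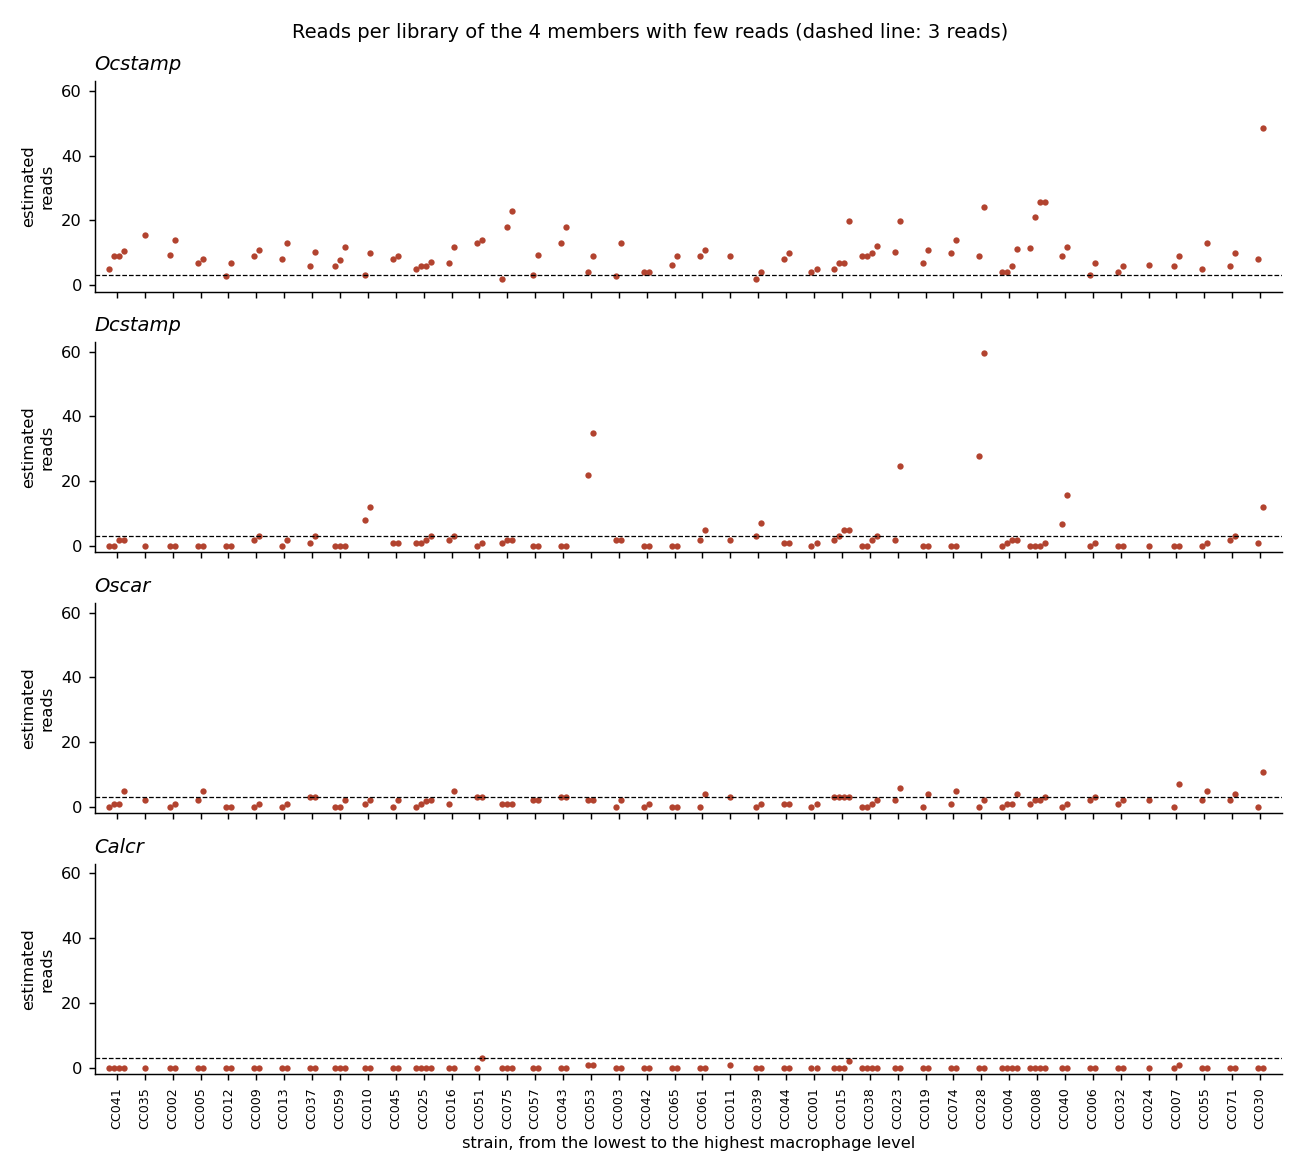
Estimated reads per library of Ocstamp, Dcstamp, Oscar and Calcr, with strains ordered from the lowest to the highest macrophage level and a dashed line at 3 reads. Dcstamp reaches 59.6 reads in a CC028 library and lies at or near 0 in most others, and Calcr has at most 3.0 reads.

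The rest of the pathway was summarised from lists of genes. The counts below stand beside 13% of all genes called with a positive slope across strains and 10.5% with a negative one. The list of RANK, the ITAM adaptors that costimulate it and their signalling genes had the highest median slope (0.60, against -0.00068 over all genes). All 9 of its 9 tested genes rose with the macrophage level. Among these were Tyrobp (1.17 ± 0.037 SE), which encodes the adaptor DAP12, Fcer1g (1.11 ± 0.036) and Tnfrsf11a (0.58 ± 0.024), with Tec (0.28) and Traf6 (0.058) lowest. How far these genes are specific to the osteoclast pathway, rather than made by macrophages at large, was not tested. Of 7 tested osteoclast transcription factors 5 rose, led by Spi1 (PU.1, 0.95 ± 0.024) and Mitf (0.16 ± 0.017), while Fos (0.024) and Jdp2 (-0.063) did not pass. Among inhibitors of osteoclast formation, Irf8 (0.74) and Bcl6 (0.088) also rose. Of 4 ligands and decoys none passed, and the slopes were 0.14 for Tnfsf11, which encodes RANK ligand, 0.13 for Il34, 0.047 for Tnfrsf11b, the decoy receptor osteoprotegerin, and 0.017 for Csf1. These 4 were made in every library, with medians of 3.08 TPM for Tnfsf11, 4.12 for Il34, 10.9 for Tnfrsf11b and 38.4 for Csf1.

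Of 8 surface genes linked to fusion of macrophages, 4 rose with the macrophage level, with the highest slopes in Adam8 (0.97 ± 0.038 SE) and Sirpa (0.57 ± 0.035), while the tetraspanins Cd81 (0.019) and Cd9 (-0.0055) did not pass. Of 11 genes of acid secretion and matrix resorption 7 rose, among them Mmp9 (0.29 ± 0.10, limma adjusted p = 0.037) and Tcirg1 (0.29 ± 0.023, adjusted p = 1.0e-13), the a3 subunit of the osteoclast proton pump. Ctsk (0.083 ± 0.049, adjusted p = 0.23), Slc4a2 (0.024) and Car2, the carbonic anhydrase of the resorbing cell (-0.017), did not pass, and Car2 had a median of 0.0678 TPM. The Mmp9 call is fragile: its adjusted p was 0.13 without CC030 and CC041 and rose to as much as 0.075 when single strains were left out. Of 5 other tested genes 2 rose, Slc9b2 (0.24) and Tm4sf19 (0.17), and Sphk1 (-0.023) and Sema4d (-0.025) did not pass. Across strains no gene of these 7 lists was called lower. Within strains, where 12.3% of all genes were called higher and 10.7% lower, 8 of 9 RANK and ITAM genes, 2 of 7 transcription factors and 5 of 11 resorption genes rose. None of 4 ligands and decoys and none of the 5 other genes was called there in either direction, and of the inhibitors Irf8 was called (0.77) and Bcl6 (0.12) was not. The fusion-related surface genes were split there, with 3 called higher and 3 lower, the latter being Cd9 (-0.23), Cd44 (-0.18) and Cd81 (-0.11), named after their values were seen.

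**Figure D5:**
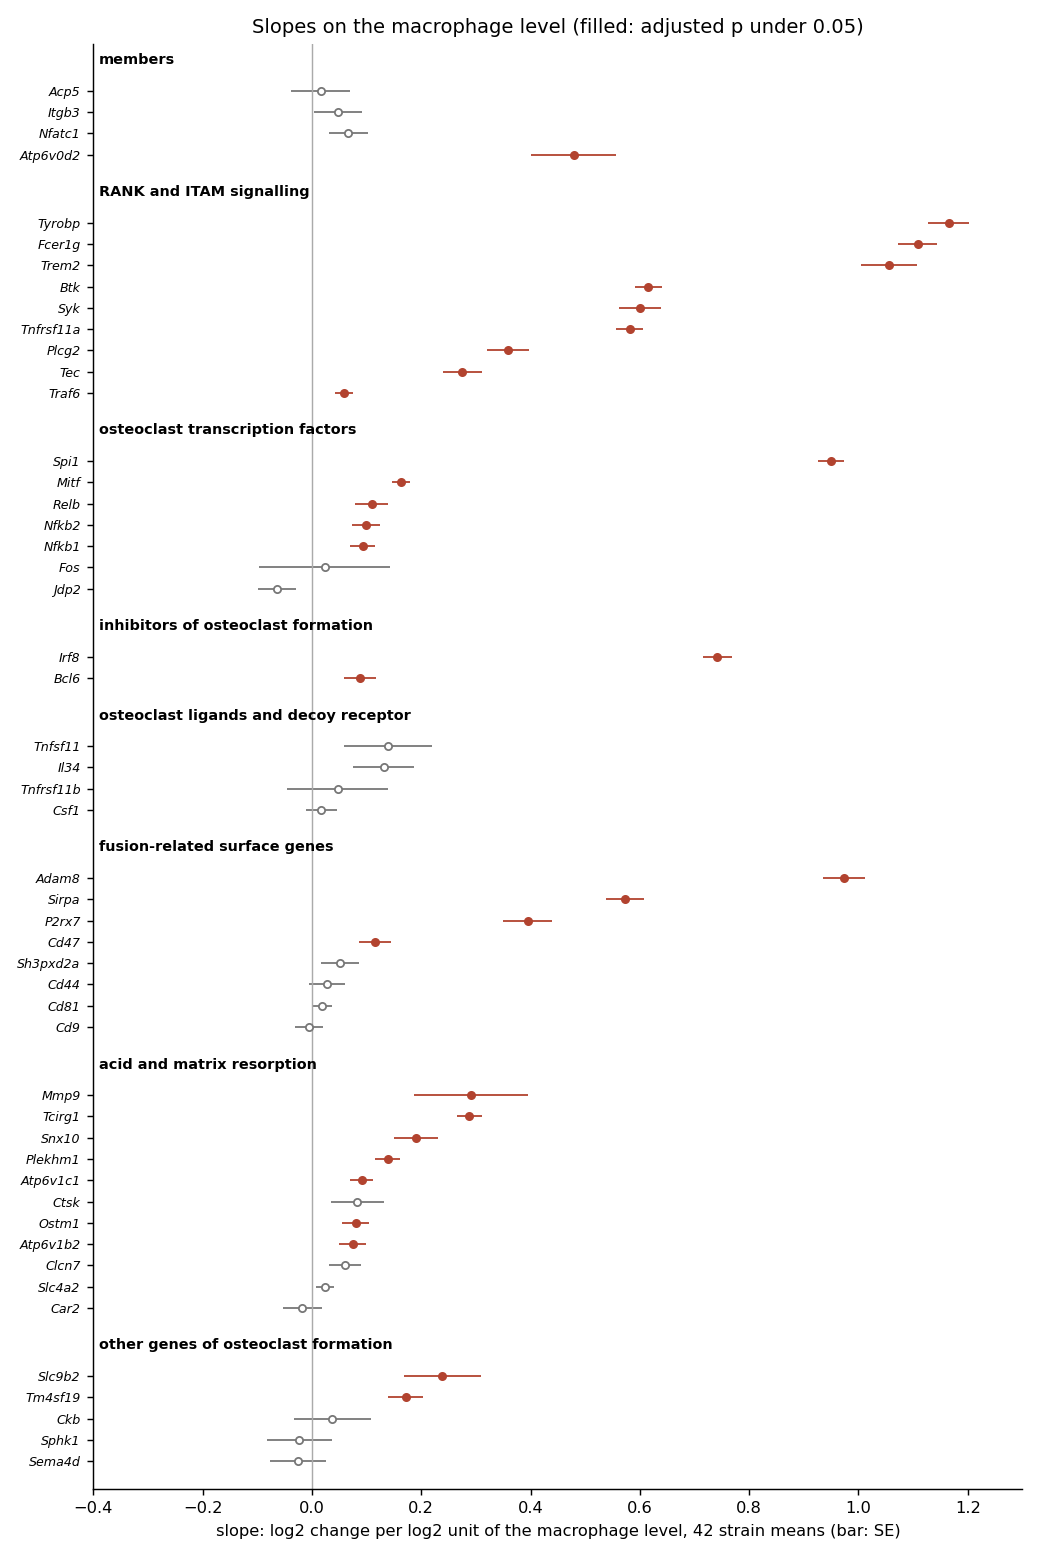
Slope on the macrophage level (log2 change per log2 unit, 42 strain means, bars of 1 SE) for the 4 tested members and tested genes of 7 lists, filled where the limma adjusted p was under 0.05. All 9 RANK and ITAM genes are filled, and among the members only Atp6v0d2 is.

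Markers of other cells that such cultures can hold moved in part with the same axis. All 14 macrophage genes rose with the level of the other 13, from Cd163 (0.17) and Aif1 (0.62) to Mrc1 (1.36) and C1qb (1.37). These genes were chosen together to set the axis, so their rise describes the list and is no separate result. Of 15 osteoblast genes 6 fell, beside 10.5% of all genes called lower and 13% called higher. The steepest slopes were in Smpd3 (-0.36) and Phospho1 (-0.28), while Sparc (-0.052) and Col1a1 (0.027) did not pass. Among megakaryocyte genes Pf4 rose (1.35) and Ppbp (0.14) and Itga2b (0.094) did not pass. Of the endothelial list Kdr rose (0.28) and Tek (0.076) and Cdh5 (0.018) did not pass, and the summed level of the 6 genes was 0.299 to 3.31 TPM, with Tie1 listed at 0 in 82 libraries. Of the dendritic list Itgax rose (0.57) and Zbtb46 (-0.030) did not pass, Cd209a was listed at 0 in all 95 libraries, and the summed level was 0.739 to 11.2 TPM. Chrna1 of the muscle precursor list did not pass (-0.042), with a summed level of 0.0267 to 0.752 TPM and Pax7 listed at 0 in 94 libraries. The part of these cells in the levels of the members was not tested.

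Genes with the profile most like each member were taken by Pearson's r over 42 strain means, as a description among all genes tested. Atp6v0d2 was most like Mitf (r = 0.85), Npc1, a cholesterol transporter of lysosomes (0.83), and Unc93b1, a chaperone of Toll-like receptors (0.82). Nfatc1 was most like Ankrd52 (0.81) and the protease Furin (0.80). The other members had no neighbour as close. The highest values were 0.58 for Acp5 (Tmc5, followed by Gm14756 at 0.56 and Pdgfd at 0.55) and 0.57 for Itgb3 (Gm25683, then Sprn and Fchsd1, both 0.56). Ocstamp had 0.67 with Ampd2, 0.64 with Oit3 and 0.64 with Asgr2, and Oscar 0.53 with Sec24c and 0.50 with Atp13a1 and Bcl7b. Gm14756 and Gm25683 were listed at 0 in the median library. For Dcstamp (Gm27286, 0.72, Gm23855 and Mir6352) and Calcr (Kng1, 0.59, Rhoq and Gm25617), r rests on a few strains above 0 and Spearman's rho with the first gene was 0.16 and 0.10.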

How the data were processed

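The deposited table holds transcript-level TPM values made by the authors. The file name speaks of counts, but every column adds up to 1000000. Per the submitters' processing notes, mm9 and Bowtie were used; versions and the quantifier are not given in the sources used here. Per the labels' protocols, 200 ng of total RNA was depleted of ribosomal RNA and made into stranded libraries. Of 94545 named transcripts, 91225 matched GENCODE vM21 (GRCm38) by identifier and were summed to 37945 genes; 1 row without a name was left out. Coordinates and sequences are of GRCm38, not of the authors' build.

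Columns were scaled by trimmed-mean factors (0.772 to 1.271; 30% of ratios and 5% of levels trimmed, genes of at least 1 TPM on average). Genes with at least 0.5 TPM in 2 libraries were tested on log2(scaled TPM + 0.5) with limma 3.58.1 in R 4.3.3, with Benjamini-Hochberg adjustment over 15760 genes and a threshold of 0.05. The fits were tested on simulated data. Strain differences, each strain against the mean of the others, slopes on the macrophage level across strain means and within strains, and the osteoblast slope beside it were fitted. A macrophage gene was left out of its own level.

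Depth was estimated from the steps that single reads leave in low TPM values of 6215 transcripts (a median of 83.9% of values within 0.1 of a whole read, 20% by chance). Count tests were not used, since TPM are not counts. Named genes were the members, Csf1r, Tnfrsf11a, Ctsk and Mmp9, the 2 highest and 2 lowest macrophage slopes of each list and the 3 genes most like each member; some results under this rule are not reported here. The members and gene lists were chosen with earlier results of these data known. Alternatives were another pseudocount, unscaled TPM, no filter, subsets by sample number, and leaving out each library or strain. The unfiltered fit with a pseudocount of 0.1, the tests of single transcripts and the strain calls without each library of that strain were added after seeing the data.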

Additional observations from a re-analysis of the deposited data

Results flagged for a closer look

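Of 33 combinations of a member and a strain with 4 libraries examined, 2 had a library far from the other 3 by Dixon's test at the 95% level. Chance gives about 1 in 20 such combinations. Acp5 in CC004 replicate 4 was 11.4 scaled TPM, against 9.18, 8.96 and 9.17 in the other libraries, and CC004 stayed called higher for Acp5 without it. Ocstamp in CC025 replicate 4 was 0.0433 scaled TPM, against 0.0618 to 0.0642 in the others, a difference of a few reads.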

How the results depend on the processing

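No paired analysis was possible because the labels give no replicate numbers that link libraries of different strains. No result changed sign past its threshold under the alternatives run. Main counts over all genes were 12851 for strain, 90833 pairs of gene and strain, 3699 and 3617 for the macrophage slope across and within strains, 2240 for the osteoblast slope and 12591 for strain beside the macrophage level. The number of members called for the osteoblast slope was 0 with a pseudocount of 0.1, with unscaled TPM, with no filter and without CC030 and CC041. With unscaled TPM, 2 members and 8347 genes were called within strains and 1460 genes for the osteoblast slope. With close sample numbers, 0 members and 623 genes were called within strains. With distant numbers, 0 members and 450 genes were called within strains, 6503 genes for strain, 4966 for strain beside the macrophage level, and 19790 pairs, with 4 member pairs higher and 2 lower. Nfatc1 then lost its strain call beside the macrophage level (limma adjusted p = 0.58).

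With 1 library or strain left out at a time, 4 to 4 members and 12525 to 13250 genes were called for strain, 4 to 4 members and 12207 to 13111 genes beside the macrophage level, and 86873 to 100820 pairs, with 20 to 24 member pairs higher and 14 to 21 lower. Across strains 1 to 1 members and 2573 to 4030 genes followed the macrophage level, within strains 0 to 1 members and 2824 to 3971 genes, and 0 to 1 members and 1886 to 2395 genes the osteoblast level. Depth limits Calcr, Dcstamp, Oscar and Ocstamp, whose differences rest on few reads.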

Other observations

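The CC030 sample with 2 runs gave a technical spread for the members. In deposited TPM, Acp5 was 11.4 and 10.9 in the 2 runs, Atp6v0d2 13.7 and 10.8, Nfatc1 3.64 and 2.73, and Itgb3 12.7 and 9.74. Ocstamp was 0.209 and 0.263, Dcstamp 0.108 and 0.111, Oscar 0.145 and 0.0867, and Calcr was listed at 0 in both.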
